A study of Mus musculus with 4 samples.

Results

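Complement is a protein cascade of innate immunity, and 9 of its genes were followed here through the hair cycle in dermal white adipose tissue (dWAT), the fat layer below the dermis that surrounds the lower ends of hair follicles (HFs). The 9 genes were taken by name from the 22913 genes listed in each library, by a rule that uses no measured value. They were C1qa, C1qb and C1qc (the 3 chains of C1q), C4b and C2 of the classical pathway, C3 at the centre of the cascade, Cfb of the alternative pathway, the inhibitor gene Serping1 and the receptor gene C3ar1. All 9 had an FPKM (fragments scaled by listed gene length and by library depth) above 0 in every library, and 8 of the 9 reached an FPKM of at least 1 in every library, the exception being C3ar1 in both anagen libraries.

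RNA of dWAT was sequenced in 4 libraries, 1 per group, from C57BL/6 mice for which the labels name no transgene or knockout. OTD was dWAT of old mice and YTD of young mice with HFs in telogen, the resting phase of the hair cycle. OAD was dWAT of old mice and YAD of young mice in anagen, the growth phase, which was induced by depilation in both ages, so that phase and depilation cannot be told apart. The study's methods give dWAT from 20 mice for each group, separated from the skin by microdissection. In the protocol and the methods the young mice were 2 months and the old mice 18 months of age. The age field of the sample labels instead gives 18 months for both telogen libraries and 2 months for both anagen libraries, against the titles of YTD and OAD, and the titles were followed here. With 1 library per group there was no spread between replicates, no test and no p-value, and every difference below is one between single libraries.

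The cascade starts in the classical pathway when C1q, which carries the proteases C1r and C1s, binds antibody or other targets. C4 and C2 are then cleaved to form a C3 convertase. In the alternative pathway factor B, cut by factor D (adipsin), forms a second convertase on deposited C3 and so amplifies the reaction. The C1 inhibitor encoded by Serping1 inactivates C1r and C1s, and the C3a receptor encoded by C3ar1 lets myeloid cells sense the C3a fragment. In tissues the C1q chains are made mainly by macrophages, C3 and the C1 proteases also by fibroblasts and adipocytes, and factor D is an abundant product of fat cells.

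The libraries differed in composition as well as in group. The depth, estimated from the lowest values, was roughly 17500000 to 24200000 fragments. Mitochondrially encoded genes took a large part of the FPKM, at 52.7% (OTD), 44.7% (YTD), 18.3% (OAD) and 14.4% (YAD). The adipocyte markers Adipoq, which encodes adiponectin, and Plin1, which encodes perilipin, were present in all 4 libraries, with an FPKM of 76.5 to 427 and of 29.1 to 86.7. The 10 adipocyte markers summed to an FPKM of 4683 (OTD), 3545 (YTD), 1754 (OAD) and 1313 (YAD). The 10 keratinocyte markers, among them Krt5 and Krt14, summed to 92.8, 147, 2533 and 1992 in the same order, and the 10 skeletal muscle markers, among them Ckm and Acta1, summed to 59019, 93002, 14063 and 10605. The anagen libraries thus held more transcripts of epithelium and fewer of fat and muscle than the telogen libraries. The 4 Y-linked genes looked at, chosen after values were seen, were lowest in OAD, where Ddx3y had an FPKM of 7.39 against 12.3 in YAD and 24.1 and 26.1 in OTD and YTD, and Gm26992, whose span overlaps Xist on the other strand, was listed at 16.0 in OAD, 0.59 in YAD and 0 in both telogen libraries. The labels give no sex, and the part of this difference in the comparison of OAD with YAD was not tested.

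Promoter sequence from RefSeq (GRCm38.p6) was held for 4 of the 9 genes, C1qb, C1qc, C3 and C3ar1. The 250 bases before the RefSeq start site are shown for 2 chains of C1q and for C3. C1qb and C1qc were shown because they kept the same order over the libraries, and C3 because its order differed from theirs. C3ar1 also had the order of C1qb and C1qc, and its window is not shown. For C1qc the RefSeq start lies inside the span listed with the FPKM, which ends at 136893065. Part of its window is therefore within the listed gene, and distances below are counted from the RefSeq start. Capitals mark matches to 2 of the 5 motifs searched on both strands. The ETS core GAGGAA, the kind of element bound by the myeloid factor PU.1, was matched at 30 to 25 bases before the start of C1qb (minus strand of chromosome 4, chr4:136886201-136886450) and, on the other strand as TTCCTC, at 193 to 188 bases before the start of C1qc (minus strand of chromosome 4, chr4:136892915-136893164). The C/EBP letters TTGCNNAA were matched at 45 to 38 bases before the start of C3 (minus strand of chromosome 17, chr17:57228137-57228386).
C1qb: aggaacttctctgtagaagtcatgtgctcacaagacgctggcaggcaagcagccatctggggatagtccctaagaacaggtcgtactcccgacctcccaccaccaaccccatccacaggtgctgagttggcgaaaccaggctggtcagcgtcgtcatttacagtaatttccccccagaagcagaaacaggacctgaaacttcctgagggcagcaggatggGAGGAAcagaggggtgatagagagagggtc
C1qc: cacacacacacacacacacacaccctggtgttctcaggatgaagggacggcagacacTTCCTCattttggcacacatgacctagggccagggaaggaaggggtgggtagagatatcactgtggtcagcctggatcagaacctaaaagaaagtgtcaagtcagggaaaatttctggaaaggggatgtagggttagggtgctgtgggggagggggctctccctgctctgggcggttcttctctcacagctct
C3: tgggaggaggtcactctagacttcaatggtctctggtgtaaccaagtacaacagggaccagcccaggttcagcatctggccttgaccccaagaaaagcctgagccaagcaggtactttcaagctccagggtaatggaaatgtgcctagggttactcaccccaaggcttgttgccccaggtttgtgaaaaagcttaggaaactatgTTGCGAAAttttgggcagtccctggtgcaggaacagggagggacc
Of 32851 promoter windows of the same length, 23.3% held GAGGAA and 9.56% held TTGCNNAA on either strand, so the first match is a common one. The STAT letters TTCNNNGAA and the IRF letters GAAANNGAA were not in any of the 4 windows, and the AP-1 letters TGANTCA were matched in that of C3ar1 only. Of all windows, 7.02%, 7.13% and 6.75% held these. The window of C3ar1 held no match to GAGGAA or TTGCNNAA. A match describes letters and shows no binding.

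The levels of the 9 genes were highest in OTD and second highest in YTD for every gene. Together they summed to an FPKM of 642 (OTD), 441 (YTD), 147 (OAD) and 143 (YAD). Their share of all summed FPKM was 0.0514%, 0.0354%, 0.0180% and 0.0206% in the same order, and 0.109%, 0.0640%, 0.0221% and 0.0241% when mitochondrially encoded genes were left out. Below the telogen libraries the genes fell into 2 orders. C1qa, C1qb, C1qc, C2, Serping1 and C3ar1 were lowest in OAD, while C3, C4b and Cfb were lowest in YAD. In a bulk sample such as these, fewer cells of a type and less RNA per cell cannot be told apart.

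**Figure D1:**
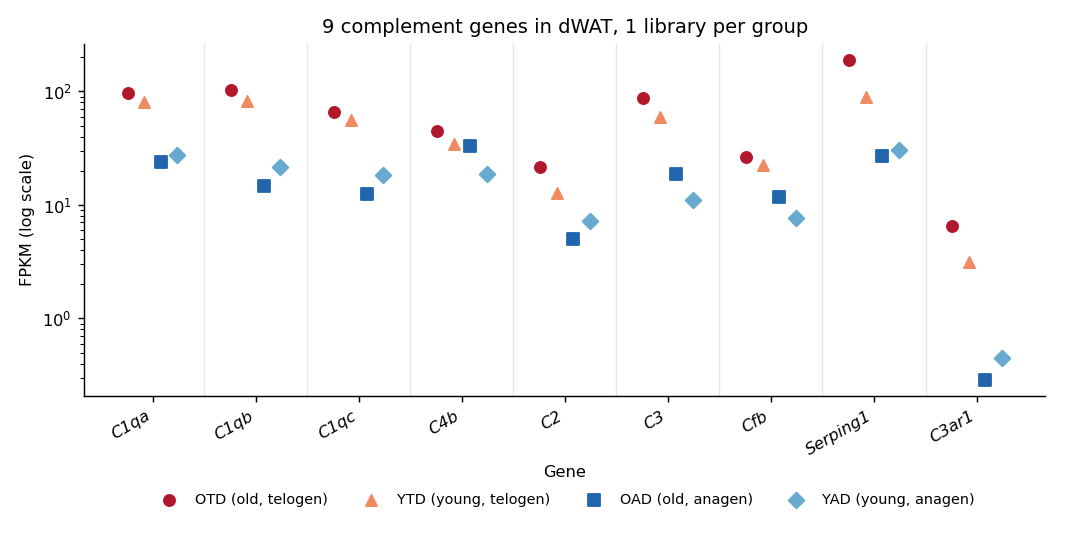
FPKM (log axis) of the 9 complement genes, grouped along the horizontal axis, in the single library of each group (OTD circles, YTD triangles, OAD squares, YAD diamonds). The 2 telogen points lie above the 2 anagen points for each gene, with the narrowest gap for C4b, where YTD at 34.2 and OAD at 33.2 nearly meet.

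The recognition chains of C1q had similar levels within each library. C1qa (ENSMUSG00000036887, GRCm38 chromosome 4 from 136895917 to 136898803, minus strand) had an FPKM of 96.6 (OTD), 80.6 (YTD), 23.9 (OAD) and 27.6 (YAD). C1qb (ENSMUSG00000036905, chromosome 4 from 136880129 to 136886187, minus strand) had 103, 82.0, 14.7 and 21.7 in the same order. C1qc (ENSMUSG00000036896, chromosome 4 from 136889804 to 136893065, minus strand) had 66.3, 55.8, 12.4 and 18.3. All 3 chains were therefore slightly higher in the old library in telogen and lower in the old library in anagen. On the log2(FPKM + 1) scale, which understates the change of low values, OTD minus YTD was 0.26 for C1qa, 0.33 for C1qb and 0.24 for C1qc, and OAD minus YAD was -0.20, -0.53 and -0.52. An interval for counting error only was computed from the estimated fragments (exact, 95%). As an FPKM ratio OTD to YTD for C1qb was 1.26 (1.17 to 1.36), and OAD to YAD was 0.68 (0.57 to 0.81). For C1qa in anagen the ratio of 0.86 had an interval of 0.75 to 0.998, which ends just below 1. The telogen libraries exceeded the anagen libraries by more than the ages differed. YTD was 2.92 times YAD for C1qa, 3.78 times for C1qb and 3.05 times for C1qc, and OTD was 4.05, 7.02 and 5.33 times OAD.

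The 3 C1q genes lie side by side, in the order C1qb, C1qc, C1qa, within 18.7 kb, and no sequence word of 50 bases of their transcripts was shared with another gene. Their products assemble in equal numbers. The ratio of C1qa to C1qb was lower in telogen than in anagen at both ages. C1qa to C1qb was 0.93 in OTD and 0.98 in YTD, against 1.62 in OAD and 1.27 in YAD. C1qa to C1qc was 1.46 in OTD against 1.92 in OAD, while in young mice it was nearly the same, at 1.44 in YTD and 1.51 in YAD. No interval was computed for these ratios. The lowest level behind them, C1qc in OAD, rested on roughly 223 fragments.

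Macrophage markers moved with the C1q chains. Of the 15 markers, 13 were higher in OTD than YTD, 13 were lower in OAD than YAD, 14 were lower in YAD than YTD and 15 were lower in OAD than OTD. Their summed FPKM was 856 (OTD), 435 (YTD), 75.4 (OAD) and 99.8 (YAD), and no defining marker was at 0 in any library. Some were not clearly detected in anagen, where Cx3cr1 stood for an estimated 1 fragment in OAD and 0.3 in YAD. Fcgr1 stood for an estimated 1.7 fragments in OAD and 5.6 in YAD. Adgre1, which encodes F4/80, had 9.68, 4.59, 0.61 and 0.78, and Csf1r, the receptor for macrophage colony-stimulating factor, had 15.5, 10.3, 3.0 and 3.43. The geometric mean of the C1q chains was 5.73 times that of the 15 markers in OTD, against 7.23 (YTD), 9.97 (OAD) and 10.5 (YAD). This ratio does not depend on the scaling between libraries. In anagen the low values of Cx3cr1 and Fcgr1 lower the geometric mean of the markers and so raise the ratio, by an amount not computed. Against Csf1r alone the ratio stayed at 5.63, 6.94, 5.45 and 6.48, whereas against Adgre1 alone it was 9.01, 15.6, 26.6 and 28.5. Whether C1q differed more or less than macrophage transcripts between phases thus depended on the marker it was set beside, and the markers' part in the differences of C1q was not tested.

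**Figure D2:**
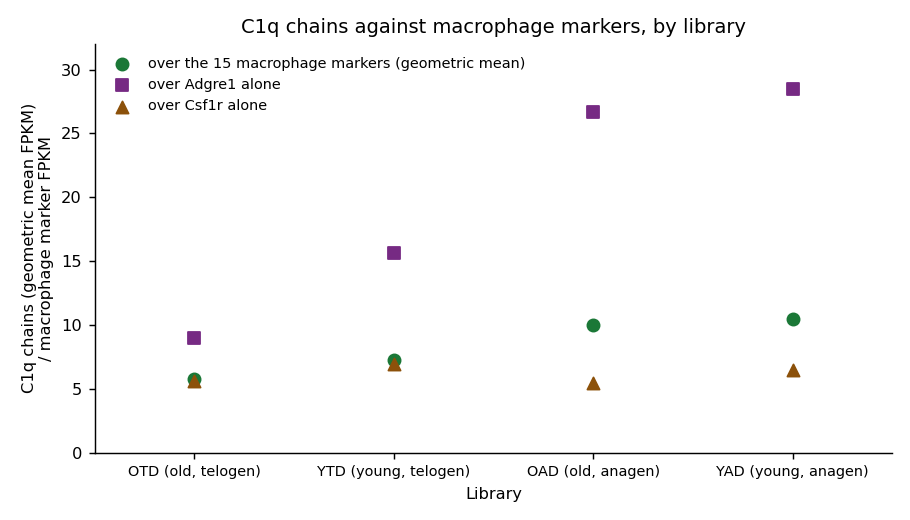
Geometric mean FPKM of C1qa, C1qb and C1qc divided by the FPKM of macrophage markers, for the single library of each group, with circles for the geometric mean of 15 markers, squares for Adgre1 alone and triangles for Csf1r alone. The triangles stay between 5.45 and 6.94, while the squares run from 9.01 in OTD to 28.5 in YAD.

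C4b and C2 encode the 2 components that build the C3 convertase of the classical pathway, and they behaved differently. C4b (ENSMUSG00000073418, chromosome 17 from 34728380 to 34743882, minus strand) had an FPKM of 44.7 (OTD), 34.2 (YTD), 33.2 (OAD) and 18.8 (YAD). C2 (ENSMUSG00000024371, chromosome 17 from 34862604 to 34895547, minus strand) had 21.5, 12.8, 5.04 and 7.14. C4b was higher in the old library in both phases, and in old mice it was the gene of the 9 with the smallest difference between phases. Its log2 change was 0.38 in OTD minus YTD, 0.78 in OAD minus YAD, -0.83 in YAD minus YTD and -0.42 in OAD minus OTD. For C2 the same differences were 0.71, -0.43, -0.76 and -1.90, so C2 was higher in the old library in telogen and lower in the old library in anagen. The ratio OTD to YTD of C2 was 1.68 (1.51 to 1.87, counting error only) and OAD to YAD was 0.71 (0.60 to 0.84). Of the 50-base words of the C4b transcript, 35.2% also occur in another gene, most often in C4a, its near-identical copy. C4a was not analysed here, so the value of C4b may hold fragments of both copies. For C2 and Cfb, 58.0% and 81.4% of the words occur in another gene, most often in Gm20547, an annotated gene that overlaps both on the same strand. Gm20547 was listed at 3.53e-40 in YAD and at still smaller values in the other libraries, so that the deposited values assign the fragments of this stretch to C2 and Cfb. C2 further overlaps Zbtb12 on the other strand, which had an FPKM of 2.92 to 5.41, and whether strand was used in counting is not given in the sources used here.

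C3 and Cfb, the 2 genes of the alternative convertase, differed with age in the same direction as C4b. C3 (ENSMUSG00000024164, chromosome 17 from 57203970 to 57228136, minus strand) had an FPKM of 87.7 (OTD), 59.7 (YTD), 18.8 (OAD) and 11.0 (YAD). Cfb (ENSMUSG00000090231, chromosome 17 from 34856374 to 34862518, minus strand) had 26.3, 22.5, 11.7 and 7.68. Both were higher in the old than in the young library in each phase, with less than a unit of log2 change between ages. For C3 the log2 change was 0.55 in telogen and 0.72 in anagen, with ratios of 1.47 (1.42 to 1.52) and 1.70 (1.58 to 1.84). For Cfb it was 0.22 in telogen and 0.55 in anagen, with ratios of 1.17 (1.07 to 1.27) and 1.52 (1.33 to 1.75). Between phases the steps of C3 were larger, with YTD 5.42 times YAD and OTD 4.67 times OAD, than those of Cfb, with 2.93 and 2.25 times. Of the FPKM summed over the 9 genes C3 made up 13.7% (OTD), 13.6% (YTD), 12.8% (OAD) and 7.70% (YAD), while the share of C4b was 6.96%, 7.76%, 22.6% and 13.2%. The ratio of C3 to C4b was accordingly 1.96 and 1.75 in telogen and 0.57 and 0.58 in anagen, nearly the same at both ages.

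C4b, Cfb and C2 lie within 167 kb of chromosome 17, and only 85 bases separate the listed spans of Cfb and C2. Of the genes listed between C4b and Cfb, Stk19, Dxo, Skiv2l and Nelfe did not share their course. They were higher in anagen, with log2 changes of 0.77 to 1.18 in YAD minus YTD and of 0.998 to 1.44 in OAD minus OTD, while C4b, Cfb and C2 were lower in both. Of all genes 51.1% and 50.9% were higher by any size in these comparisons. Cyp21a1, also between C4b and Cfb, did not exceed an FPKM of 0.36. The 3 complement genes also did not share an order among themselves, since C2 was lowest in OAD and the other 2 in YAD.

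Serping1, the gene of the C1 inhibitor, had the highest level of the 9 genes in 3 libraries and the largest log2 change with age. Serping1 (ENSMUSG00000023224, chromosome 2 from 84765387 to 84775444, minus strand) had an FPKM of 189 (OTD), 89.9 (YTD), 27.0 (OAD) and 30.2 (YAD). In OAD C4b, at 33.2, was above it. The OTD value stood apart from the other 3, at 2.10 times YTD (2.01 to 2.20, counting error only) and 7.01 times OAD (6.55 to 7.51). In log2 terms OTD minus YTD was 1.06, OAD minus YAD was -0.16, YAD minus YTD was -1.54 and OAD minus OTD was -2.76. Serping1 made up 29.4% of the summed FPKM of the 9 genes in OTD and 18.4% to 21.1% in the other libraries.

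C1s1 and C1ra, which encode the proteases C1s and C1r, were also higher in OTD than YTD by a log2 change of at least 1. C1s1 had an FPKM of 66.4 (OTD), 30.9 (YTD), 14.3 (OAD) and 13.0 (YAD), and C1ra had 26.8, 11.6, 5.08 and 5.83. Their log2 changes in OTD minus YTD were 1.08 and 1.14, and in OAD minus YAD they were 0.13 and -0.17. The ratio of Serping1 to C1s1 was 2.85 in OTD and 2.91 in YTD, and 1.88 in OAD and 2.33 in YAD, so inhibitor and protease stood in nearly the same ratio at both ages in telogen. Of the 50-base words of C1s1 39.0% occur in another gene, most often in C1s2, and of those of C1ra 50.8%, most often in C1rb. C1s2 and C1rb were listed at no more than 0.22 and 0.02 in any library. Fibroblast markers differed in the same direction: 8 of 10 were higher in OTD, 8 of 10 were lower in OAD than YAD, and their summed FPKM was 1526 (OTD), 1049 (YTD), 220 (OAD) and 373 (YAD). None of the 10 was at 0. Pdgfra had 5.99, 3.80, 2.02 and 3.08, and Dpt, which encodes dermatopontin, had 313, 280, 35.0 and 49.95. The part of the fibroblast markers in the values of Serping1 was not tested.

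C3ar1, the receptor for C3a, was the gene of the 9 with the lowest level in all libraries. C3ar1 (ENSMUSG00000040552, chromosome 6 from 122847138 to 122856161, minus strand) had an FPKM of 6.55 (OTD), 3.13 (YTD), 0.29 (OAD) and 0.45 (YAD). Roughly 186 and 84 fragments stood behind the telogen values, and 10 and 11 behind the anagen values. OTD was 2.09 times YTD (1.61 to 2.74), a log2 change of 0.87. In anagen the ratio OAD to YAD of 0.64 had an interval of 0.25 to 1.70, so a difference between ages was not detectable at this depth. OTD was 22.8 times OAD (12.1 to 48.2) and YTD 6.96 times YAD (3.80 to 14.9), the largest ratios between phases among the 9 genes, which the log2(FPKM + 1) scale reduced to -2.55 and -1.51. C3ar1 relative to Adgre1 was 0.68 in both telogen libraries, 0.47 in OAD and 0.58 in YAD.

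Across the 9 genes the comparison of ages in telogen went one way. All 9 were higher in OTD than YTD, where 45.8% of the 17230 genes above 0 in either library were higher, and the median log2 change of the 9 was 0.38 against -0.03 for those genes. Only Serping1 passed a log2 change of 1, a size that 1.67% of those genes reached in that direction. In anagen C3, C4b and Cfb were higher in OAD than YAD and the other 6 were lower, where 50% of 17613 genes were higher, and the median of the 9 was -0.17 against 0.00. None of the 9 passed a change of 1 in either direction, which 1.18% of genes did. For 6 genes the sign of the age difference was thus opposite in the 2 phases, and the interval of C3ar1 in anagen included 1. The signs of all 9 genes in both phases were kept under each of the 5 scalings examined. Without mitochondrially encoded genes the telogen median of the 9 was 0.60, Serping1 and C3ar1 both passed a change of 1, and the median of genes with an FPKM of at least 1 was 0.13. In TPM the anagen median of the 9 was -0.38 and that of genes with an FPKM of at least 1 was -0.21. In telogen the 8 endothelial markers were all higher in OTD (median log2 change 0.71), as were 13 of 15 macrophage, 8 of 10 fibroblast and 6 of 10 adipocyte markers (medians of 0.54, 0.58 and 0.29), while the 10 skeletal muscle markers were all lower (-0.67) and 8 of 10 keratinocyte markers were lower (-0.55). Cell type markers also went both ways in anagen. The 10 adipocyte and 8 endothelial markers were all higher in OAD than YAD, as C3, C4b and Cfb were. So were 8 of 10 keratinocyte, 8 of 10 skeletal muscle and 7 of 9 neutrophil markers (medians of 0.21, 0.41 and 0.23). In contrast, 13 of 15 macrophage and 8 of 10 fibroblast markers were lower, as the other 6 genes were. The part of these cell types in the age differences of both phases was not tested.

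**Figure D3:**
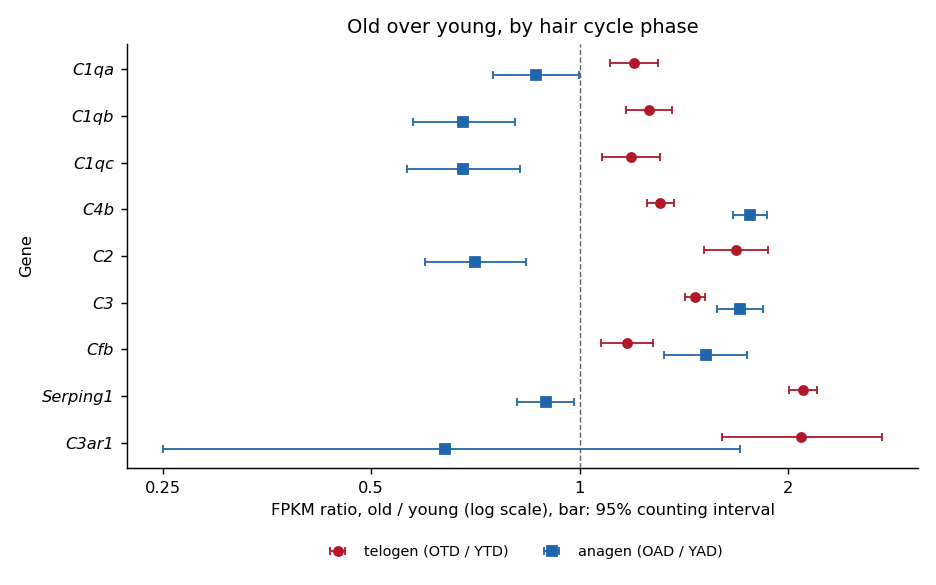
Ratio of the FPKM of the old to that of the young library (log axis) for each of the 9 genes, in telogen (circles, OTD to YTD) and in anagen (squares, OAD to YAD), with bars for the 95% interval of counting error only. All 9 circles lie to the right of 1, from 1.17 for Cfb to 2.10 for Serping1, while the squares of C3, C4b and Cfb lie to the right of 1 and the other 6 to the left.

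The comparison of phases had the larger steps. All 9 genes were lower in YAD than YTD, where 48.8% of 17622 genes were lower, and 7 of them, all but C2 and C4b, were lower by a log2 change of at least 1, which 16.7% of genes were. The median of the 9 was -1.51 against 0.02 for all genes. In old mice all 9 were lower in OAD than OTD, where 49.0% of 17712 genes were lower, and 8, all but C4b, passed a change of 1, against 15.6% of genes. The median was -2.17 against 0.01. The step was larger in old than in young mice for 6 genes and smaller for C3, C4b and Cfb, which restates the age differences above, since the 4 comparisons share their libraries. These phase values depend on the scaling, because the summed FPKM differed between libraries. In TPM, in which each library sums to the same total, the median of the 9 was -0.72 in young and -1.57 in old mice and that of genes with an FPKM of at least 1 was 0.78 and 0.60, so that C2 in young (0.00) and C4b in old mice (0.18) were no longer lower and 3 genes passed a change of 1 in young mice. Relative to those medians the 9 genes were at -1.58 to -1.50 in young and at -2.25 to -2.17 in old mice over the 5 scalings. Each scaling multiplies all genes of a library by the same factor. This near constancy therefore follows from the method and is no check of the phase differences. Of the other marker lists, 10 of 10 adipocyte and 8 of 8 endothelial markers were also lower in anagen at both ages, and 10 of 10 keratinocyte markers were higher. The endothelial markers Pecam1 and Cdh5 had an FPKM of 119 and 51.4 in OTD and 18.3 and 11.9 in YAD, and none of that list was at 0. The part of the changed composition in the phase differences was not tested.

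**Figure D4:**
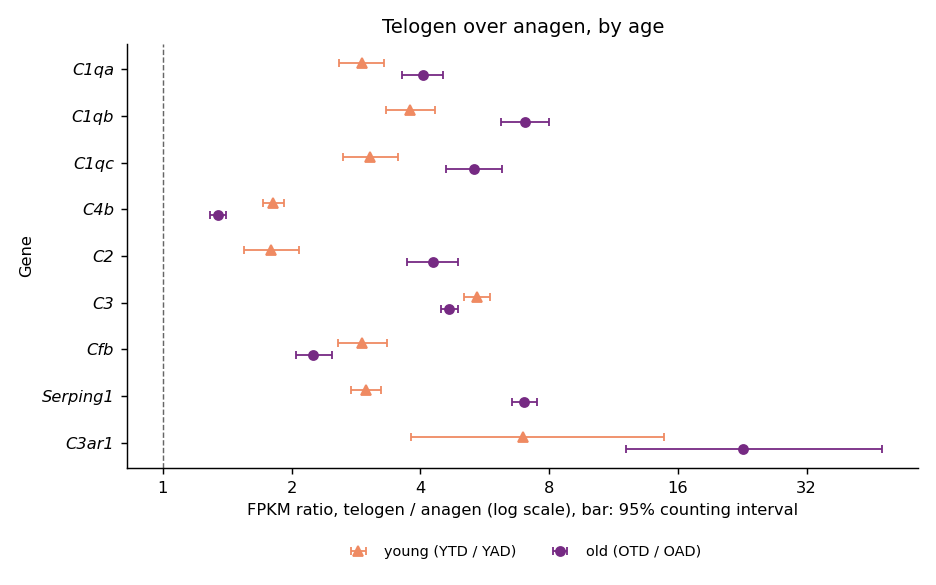
Ratio of the FPKM of the telogen to that of the anagen library (log axis) for each of the 9 genes, in young (triangles, YTD to YAD) and old mice (circles, OTD to OAD), with bars for the 95% interval of counting error only. Every point lies above 1, from 1.35 for C4b in old mice to 22.8 for C3ar1 in old mice.

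The rest of the cascade was read from 43 further complement genes, of which 42 were listed and the other, C4a, was not analysed here. In telogen 27 of the 33 with a value above 0 were higher in OTD (45.8% of all genes). Of these 27, 7 were higher by a log2 change of at least 1 (1.67% of all genes). None was lower by as much, and the median was 0.22. Several of the 33 lay near 0, and of the 22 that reached an FPKM of 1 in either library 18 were higher in OTD. In anagen 22 of 35 were higher in OAD (50% of all genes), none passed a change of 1 (1.18% of all genes), and the median was 0.03. Between phases 28 of 31 were lower in YAD than YTD (48.8% of all genes), 10 by at least 1 (16.7% of all genes). In old mice 30 of 36 were lower in OAD than OTD (49.0% of all genes), 19 by at least 1 (15.6% of all genes). The medians were -0.85 and -1.13. Among the 7 were C1ra, C1s1, Colec11, C7, Itgax and Itgb2. They come from different steps of the cascade, and they stand beside 13 of 15 macrophage and 8 of 10 fibroblast markers that were higher in OTD.

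By step, the alternative pathway was dominated by Cfd, the gene of factor D, with an FPKM of 3401 (OTD), 3216 (YTD), 1070 (OAD) and 671 (YAD). Its level was 38.8 to 61.0 times that of C3, and it was higher in OAD than YAD by a log2 change of 0.67 as 10 of 10 adipocyte markers were, against 0.08 in telogen. Cfp, which encodes the stabiliser properdin, had 16.8, 14.3, 6.51 and 7.08. Of the lectin pathway only the collectin gene Colec11 reached an FPKM of 5, with 9.97, 4.14, 2.07 and 1.76. Of the terminal components only C7 did, with 33.9, 9.90, 1.23 and 2.27, which is 3.43 times as much in OTD as in YTD (3.09 to 3.81) and 27.7 times as much in OTD as in OAD (22.1 to 35.5). C8a and C8b were listed at 0 in all libraries, and C9 and Hc (the gene of C5) did not exceed an FPKM of 0.13, so that the terminal pathway was represented by C7, C6 and C8g.

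Among receptors, Itgb2, the beta chain of complement receptors 3 and 4, had 11.6, 2.86, 0.87 and 1.16, a log2 change of 1.71 in telogen. Neutrophils carry this chain as macrophages do. Of the neutrophil markers 7 of 8 with a value were higher in OTD (45.8% of all genes) and 7 of 9 in OAD (50%). Most of these values were near 0. Of the markers reaching an FPKM of 1 in either library, 4 of 5 were higher in OTD and 2 of 2 in OAD. The 1 that was lower in OTD had a log2 change of -2.00. The summed FPKM of the list was 139, 119, 142 and 59.4. S100a8, which made up most of that sum, had 123, 114, 129 and 56.7, and S100a9 had 11.7, 0.66, 11.2 and 1.26. The defining marker Ly6g was listed at 0 in all libraries but OAD. Its 0.08 in OAD stood for an estimated 0.8 fragments, so it was not clearly detected in any library. The part of these cells was not tested. C5ar1, named beside C3ar1 as the C5a receptor, had 4.55 in OTD and 4.40 in YTD, where C3ar1 had 6.55 and 3.13. Of the membrane and fluid-phase regulators none of 9 with a value passed a change of 1 in telogen or of 10 in anagen, with medians of 0.23 and 0.07. Of all genes 1.67% were higher by as much in telogen, and 1.18% passed it in either direction in anagen. Cd55, which speeds the decay of convertases, had 29.2, 34.7, 7.29 and 7.14, and Cr1l (Crry), the broad rodent inhibitor of C3 convertases, had 41.9, 34.4, 19.7 and 19.0. Cd59a and Cd59b, blockers of the membrane attack complex, had 41.1, 35.2, 10.3 and 7.07 and 26.0, 27.1, 7.43 and 5.04. Clu, which encodes the chaperone clusterin, had 97.7, 108, 80.1 and 54.1, and Vtn, which encodes vitronectin, had 12.4, 6.57, 2.58 and 2.44. Between OAD and OTD Clu differed by -0.28, the smallest difference of the 13 genes shown. Susd4 was the only gene of the 42 that was higher in anagen by at least 1, with 0.33 in YTD and 2.18 in YAD (1.26), and 0.56 and 2.07 in old mice (0.98).

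**Figure D5:**
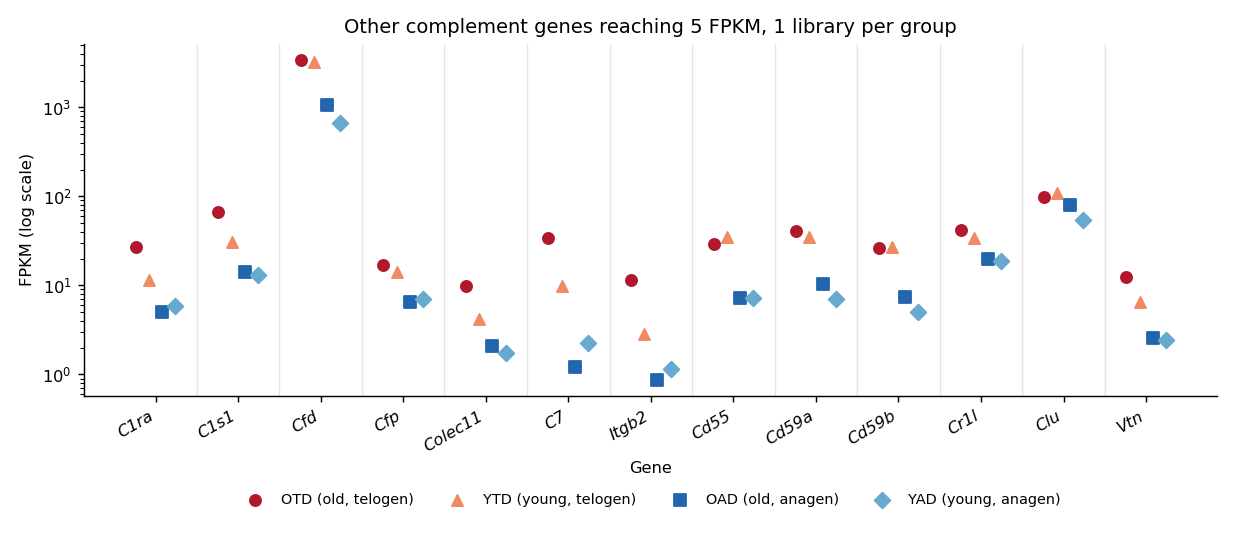
FPKM (log axis) of 13 other complement genes that reached an FPKM of 5 in any library, in the single library of each group (OTD circles, YTD triangles, OAD squares, YAD diamonds). Cfd lies above the others at 671 to 3401, and C7 spans the widest range, from 1.23 in OAD to 33.9 in OTD.

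Outside the cascade, the genes whose course over the 4 libraries was nearest to the mean of the C1q chains, by the root mean square difference of centred log2(FPKM + 1) among 6499 genes with a mean FPKM of at least 10, included Clec3b (0.10), Dab2, Gsta3 and Klf9 (each 0.11). Clec3b, which encodes tetranectin, had an FPKM of 159, 133, 26.1 and 39.7 in OTD, YTD, OAD and YAD. Nearest to C3 were Amy1 and Cd300lg (each 0.08), Cyp2f2, mt-Atp6 and Fbxo32 (each 0.10). Cd300lg had 70.8, 42.6, 13.3 and 8.61, and mt-Atp6 is encoded by the mitochondrial genome, whose share of each library is given above. The likeness rests on 4 values per gene and is a description.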

How the data were processed

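dWAT was separated from the skin by microdissection, and RNA of each of the 4 groups was sequenced as 1 library. For each library the authors deposited 1 table of FPKM, in which 22913 genes stand with their length and position. The submitters' processing notes name bcl2fastq, TopHat2 and GRCm38, and the counting tool and annotation are not given in the sources used here. Of the listed lengths, 97.0% were multiples of 3, so they are coding lengths. The values of 77 genes lay above 0 and below 1e-06 in at least 1 library.

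FPKM were used as deposited. Changes are differences of log2(FPKM + 1), and a change of at least 1 was counted. Symbols were matched for 21750 of 22166 Ensembl identifiers. Depth was estimated from the lowest values of features of 2000 to 4000 bases, and whole fragments were not recovered. Intervals are exact conditional binomial (Clopper-Pearson, 95%) and cover counting error only.

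The genes named were the 9 genes, other complement genes reaching an FPKM of 5, copies or overlapping genes, the first 2 markers of 7 cell type lists (macrophage, fibroblast, adipocyte, keratinocyte, skeletal muscle, neutrophil and endothelial), and the 5 genes nearest in course to C1q and to C3. Itgax, C6, C8a, C8b, C8g, C9, Hc, C5ar1, Susd4, Ly6g, Cx3cr1, Fcgr1, the neighbours of C4b and the sex-linked genes were named after their values were seen. Some genes these rules name are not reported here. The rule for the 9 genes uses no value, but the 9 genes and the lists were chosen with earlier results of these data known. Alternatives were other pseudocounts, scalings, thresholds and a filter. Words shared between genes were searched in GENCODE transcripts. The steps were tested on simulated data. Python 3.11.15, numpy 2.4.6, pandas 2.3.3, scipy 1.17.1 and matplotlib 3.10.9 were used.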

Additional observations from a re-analysis of the deposited data

Results flagged for a closer look

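For 6 of the 9 genes the difference between old and young mice had opposite signs in the 2 phases, and with 1 library per group this difference between phases was not tested. In telogen (OTD minus YTD) the log2 changes were 0.26 for C1qa, 0.33 for C1qb, 0.24 for C1qc, 0.71 for C2, 1.06 for Serping1 and 0.87 for C3ar1. In anagen (OAD minus YAD) they were -0.20 for C1qa, -0.53 for C1qb, -0.52 for C1qc, -0.43 for C2, -0.16 for Serping1 and -0.17 for C3ar1. The distance between the 2 age differences was 1.22 for Serping1, 1.14 for C2, 1.04 for C3ar1, 0.86 for C1qb, 0.77 for C1qc and 0.46 for C1qa. In anagen the counting interval of the ratio of old to young reached 0.998 for C1qa and 0.98 for Serping1 and included 1 for C3ar1.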

How the results depend on the processing

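Differences between single libraries carry no biological error, and genes with few fragments, C3ar1 in anagen first, are limited by depth. The median of ratios moved none of the 36 values of single genes beyond the counting interval. TPM moved 21, leaving out mitochondrial genes 23, leaving out mitochondrial and muscle genes 19, and pseudocounts of 0.1 and 0.01 moved 2 and 3. No paired analysis was possible because each group holds 1 library. The causes of these shifts were not tested beyond what each setting changes by construction.

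In TPM the median of the 9 genes was -0.38 in OAD minus YAD, -0.72 in YAD minus YTD (3 genes lower by at least 1) and -1.57 in OAD minus OTD, and that of the other complement genes was -0.24 (5 lower) and -0.70 (1 higher) between phases. Without mitochondrial genes the medians of the 9 were 0.60 in telogen (2 genes higher) and -2.36 in OAD minus OTD, and those of the others 0.43 and -1.39 (1 higher). Without mitochondrial and muscle genes they were 0.54 (2 higher) and -2.48, and 0.38 and -1.50 (1 higher).

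With a pseudocount of 0.1, 2 of the 9 genes were higher by at least 1 in telogen. Medians of the other genes were 0.61 in telogen, -1.25 in YAD minus YTD (19 lower) and -1.73 in OAD minus OTD (1 higher), with 1 higher and 1 lower in OAD minus YAD. With 0.01, 2 of the 9 were higher in telogen, and the medians were 0.92 (16 higher), -1.42 (2 higher, 22 lower) and -1.91 (4 higher, 29 lower), with 4 higher and 3 lower in OAD minus YAD. A filter on genes reaching an FPKM of 1 gave medians of 0.37 in telogen and -1.68 in OAD minus OTD.

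At a threshold of 0.5, 4 of the 9 genes were higher in telogen and 3 higher and 2 lower in OAD minus YAD. Of the others, 3 were higher and 2 lower in OAD minus YAD, 20 lower in YAD minus YTD and 1 higher in OAD minus OTD. At 1.5, none (0) of the 9 and 3 of the others were higher in telogen, and 0 higher and 5 lower in YAD minus YTD.

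Counts over all genes moved with the pseudocount (1081 higher and 1063 lower in telogen, 577 and 532 in OAD minus YAD and 4212 lower in OAD minus OTD at 0.1, and 1800 and 1645, 1236 and 1199, 4903 and 4858 in YAD minus YTD and 4778 and 4838 at 0.01). They were 5891 higher and 1274 lower in YAD minus YTD, 4923 and 1502 in OAD minus OTD and 175 lower in OAD minus YAD in TPM, 183 lower in OAD minus YAD and 656 or 628 higher in telogen without mitochondrial or also muscle genes. At a threshold of 0.5 they were 1536 and 2142, 761 and 502, 5065 and 4975, and 5059 and 4807 over the comparisons as ordered here, and at 1.5 70 and 71, 31 and 27, 1684 and 1596, and 1704 and 1474.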
